A study of Medicago truncatula with 14 samples.

Results

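The regions described here are stretches of the Medicago truncatula genome at which all 4 peak lists of the LSH1 protein held a peak and none of the 3 lists of the NIN protein did. They were found by merging the peaks of all 7 lists wherever peaks overlapped by at least 1 bp. A merged region was kept if it was under 2000 bp wide and lay on chromosomes 1 to 8 except chromosome 6. The rule left 3459 of 148022 merged regions, called LSH1-only regions below. The choice rests on the peaks themselves, so presence in the LSH1 lists, absence from the NIN lists, place in the list and width are given as descriptions with no test, except for the presence of peaks in a list that was left out of the choice.

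The lists came from chromatin immunoprecipitation followed by sequencing (ChIP-seq), made to look for the binding sites of both proteins. Hairy roots of M. truncatula (ecotype jemalong, cultivar Jester) expressed LSH1 or NIN fused to GFP from the Lotus japonicus ubiquitin promoter and were grown for 3 weeks with 0.5 mM NH4NO3, without symbiosis. There were 4 LSH1 immunoprecipitations with 4 controls and 3 NIN immunoprecipitations with 3 controls, 14 libraries in all, and each list came from 1 immunoprecipitation and its control. The roots used for immunoprecipitation thus made 1 of the fusion proteins under a promoter that is not its own, and were grown without symbiosis. The labels give the controls the same overexpression genotype as the immunoprecipitations, while the protocol also names a control construct of nuclear GFP; which of these the control libraries came from is not stated. Separate growth of the replicates is not stated in the labels, so p-values over lists measure only how these lists vary among themselves, and that variation may be technical.

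LSH1 (LIGHT SENSITIVE SHORT HYPOCOTYL) belongs to the ALOG family, plant nuclear proteins that bind DNA through the ALOG domain and act at organ boundaries and in meristems. In legumes LSH genes are known for giving the young nodule its identity, upstream of the NOOT co-regulators. NIN (NODULE INCEPTION) is an RWP-RK transcription factor that is needed for infection and for the start of nodule organogenesis.

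Peaks numbered 25127, 21902, 18750 and 20787 in the lists of LSH1 replicates 1 to 4, against 14021, 28825 and 84178 in those of NIN replicates 1 to 3. Each list gives only the position of a peak and a running number, with no height, enrichment, p-value or summit. The number was read as a rank, and its percentage of the list length is called the place of the peak, low values coming first. Sequencing depth is unknown, as read numbers were not used here, and a longer list is no measure of more binding.

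Of the merged regions, 4642 had a peak in all 4 LSH1 lists, and 4450 of these lay on the 7 chromosomes used. NIN peaks removed 815 of them, 564 through NIN replicate 3 alone, the longest list. NIN replicate 1 had a peak in 154 of these regions, replicate 2 in 135 and replicate 3 in 659. Most of these removals thus rest on the list of NIN replicate 3. When each NIN list in turn was left out of the choice, the omitted list had a peak in 1.96% of the regions chosen without it for replicate 1, 1.79% for replicate 2 and 12.8% for replicate 3. Regions without a NIN peak numbered 3635, and the width limit removed 176 of them. Chromosome 6 held another 145 such regions under the limit.

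LSH1-only regions took a similar number of peaks from each list, which follows from the rule, as every region needs a peak of each. They held 3733, 3672, 3732 and 3777 peaks of LSH1 replicates 1 to 4, which is 14.9%, 16.8%, 19.9% and 18.2% of the list. A single peak per list made up 2737 of the regions (79.1%), and 722 had more than 1 peak in some list. The merged region was 892 bp wide at the median, with a range of 260 to 1996 bp. A stretch covered by peaks of all 4 lists existed in 3213 regions (92.9%) and had a median length of 297 bp. In the other 246 regions (7.11%) the peaks were linked only in a chain, with no base that all lists shared. The midpoints of the best-placed peaks of the 4 lists lay within 209 bp of each other at the median. This range was under 100 bp in 570 regions and over 500 bp in 358.

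The regions stood early in the lists and their peaks were wide. Median places were 12.7%, 13.9%, 18.5% and 17.7% in LSH1 replicates 1 to 4, a mean of 15.7% ± 2.84 (SD, n = 4). Replicates 1 and 2 placed them earlier than replicates 3 and 4. Median peak widths at the regions were 588, 648, 441 and 487 bp, against 320, 344, 292 and 311 bp for all peaks of the same lists. Replicate 2 had the widest and replicate 3 the narrowest peaks in both sets. The first 1000 peaks of the lists reached 629, 614, 609 and 620 of the regions. The first 20% of a list held 64.1%, 62.5%, 52.3% and 53.7% of them, and 1015 regions (29.3%) stood in the first 20% of all 4 lists.

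**Figure D1:**
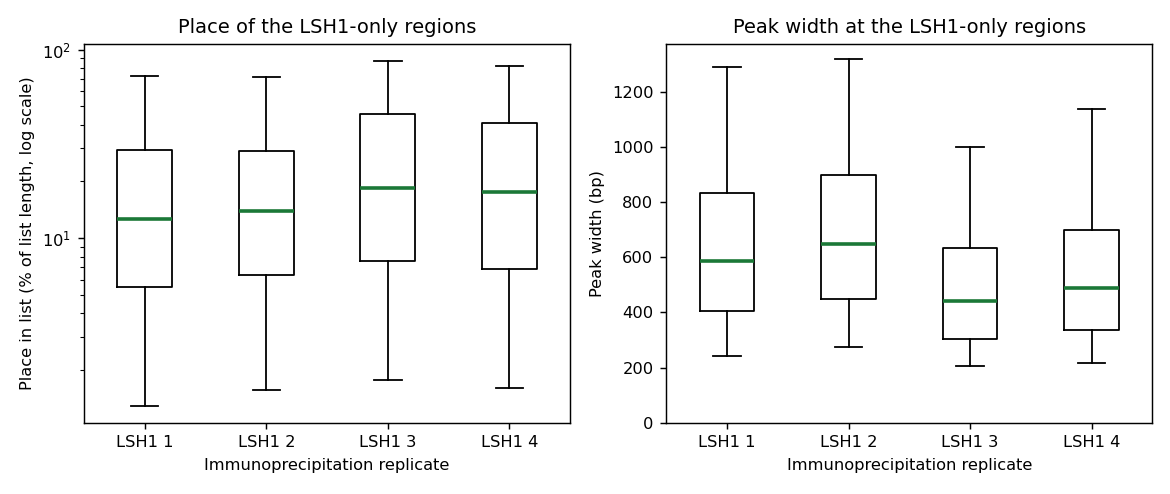
Place of the LSH1-only regions in each LSH1 list (left, per cent of list length on a log axis, low values first) and width of the peaks there in bp (right). Boxes run from the lower to the upper quartile with the median as a green line, and whiskers run from the 5th to the 95th percentile of the 3459 regions or their peaks. Median places were 12.7%, 13.9%, 18.5% and 17.7%, and median widths 588, 648, 441 and 487 bp.

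Agreement between lists on the order of the regions was partial. Spearman's rho of the places of the 3459 regions was 0.521 to 0.673 over the 6 pairs of lists, highest for replicates 1 and 2 and lowest for replicates 3 and 4. In all, 1440 regions (41.6%) were in the first 50% of one list and in the last 50% of another, while 23 were in the last 50% of all 4. Wider regions had earlier places (rho = -0.328 over the 3459 regions). The points of these correlations share their libraries, and no p is given for them.

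A list that had no part in the choice usually held a peak at regions chosen from the others. Regions found in 3 LSH1 lists and in no NIN list had a peak of the omitted list in 90.8% of cases for replicate 1, 90.0% for replicate 2, 71.8% for replicate 3 and 77.6% for replicate 4. The mean was 82.6% ± 9.38, against 44.5% ± 12.1 for regions in 2 of the 3 other lists and 14.8% ± 4.11 for regions in 1 of them (SD, n = 4 each). The 3 shares had this order in every omitted list. The difference between regions in 3 and in 1 of the other lists was 67.8 percentage points and positive in 4 of 4 lists (two-sided exact sign-flip test, p = 0.13, the smallest that 4 lists allow, so the threshold of 0.05 could not be reached). Regions in more lists were also wider, with medians of 760 to 790 bp for 3 other lists and 263 to 266 bp for 1. Asking only whether the centre of the region lay inside a peak of the omitted list gave 70.2% ± 12.6, 34.0% ± 11.2 and 10.7% ± 3.45 (SD, n = 4 each). The share for replicate 3 was lower than for replicates 1 and 2 under both ways of counting.

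Coding genes were nearer to the LSH1-only regions than to the NIN-only regions, a set chosen by the same rule with the proteins exchanged. These are 1164 regions under 2000 bp with a peak in all 3 NIN lists and in no LSH1 list, on the same chromosomes. The sets were unlike in place. NIN-only regions had median places of 44.4%, 40.3% and 28.6% in NIN replicates 1 to 3. LSH1-only regions had 12.7%, 13.9%, 18.5% and 17.7% in LSH1 replicates 1 to 4. The part of place in the difference was not tested. Neither rule used gene position directly. Both sets were proposed with it known that LSH1 peaks lie nearer to genes than NIN peaks, so the difference is no independent support for that. Midpoints of LSH1 peaks at LSH1-only regions lay in a gene-end window, from 2000 bp outside to 500 bp inside either end of a coding gene, in 53.3%, 53.7%, 53.0% and 53.2% of cases in replicates 1 to 4. Midpoints of NIN peaks at NIN-only regions did so in 21.8%, 23.2% and 21.6% of cases in replicates 1 to 3. The groups did not overlap, with means of 53.3% ± 0.276 (SD, n = 4) for LSH1-only and 22.2% ± 0.855 (SD, n = 3) for NIN-only regions. Such windows make up 32.5% of the bases of the 7 chromosomes, which lies between the values of both sets. Each rule also dropped regions with a peak of the other protein. Of regions under 2000 bp in 1 LSH1 list and no NIN list, 42.7% had a midpoint in such a window, above the share of bases. Dropping regions with an LSH1 peak can thus by itself lower the NIN-only share, and by how much was not tested.

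In the other 3 measures of gene position the lists of the sets did not overlap either, and the difference was smallest inside coding genes. Within 500 bp of a gene end lay 30.0% ± 0.558 of midpoints at LSH1-only regions (SD, n = 4) and 7.68% ± 0.310 at NIN-only regions (SD, n = 3), beside 14.6% of bases. Inside a coding gene lay 30.8% ± 0.393 at LSH1-only (SD, n = 4) and 17.0% ± 0.435 at NIN-only regions (SD, n = 3), beside 31.2% of bases. The share inside genes at LSH1-only regions was thus near that of all bases, and at NIN-only regions below it. Farther than 2000 bp from every coding gene were 32.3% ± 0.0474 at LSH1-only (SD, n = 4) and 66.8% ± 0.762 at NIN-only regions (SD, n = 3), beside 45.7% of bases. Each of the 4 differences, 31.1, 22.4, 13.8 and -34.5 percentage points in the order given, had p = 0.0286 in a two-sided exact permutation test over the 35 splits of 7 lists, the smallest they allow, and adjusted p = 0.0286 after Benjamini-Hochberg over the 4 measures. The lists of a protein describe the same regions, so their spread covers the placing of peaks and not the choice of regions. These p-values were therefore close to fixed in advance and add no support to the differences. Without any 1 list the exact permutation p was 0.1 or 0.0667, the smallest those designs allow, and counting any overlap of the peak with a gene moved the difference inside genes to 22.5 points.

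**Figure D2:**
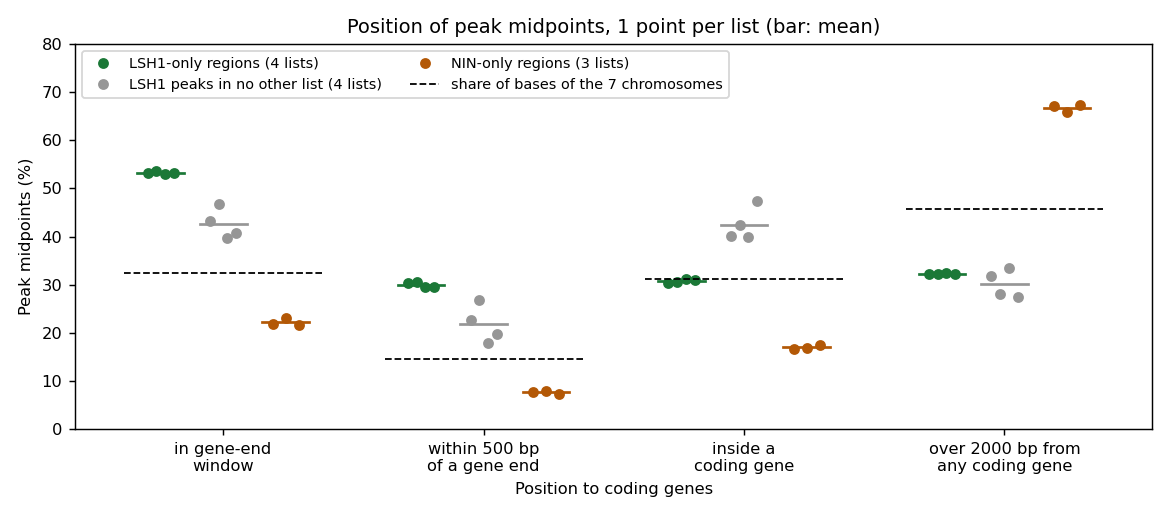
Share of peak midpoints by position to coding genes (vertical axis, per cent), with 1 point per list and a bar at the mean, for LSH1-only regions (green), LSH1 peaks found in no other list (grey) and NIN-only regions (orange); dashed lines mark the share of the bases of the 7 chromosomes. The first 3 position classes overlap, and the 4 green points lie apart from the 3 orange points in every class, with 53.3% against 22.2% in the gene-end window.

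The shares were also set against the bases around the regions. Weighting the 1-Mb bins by the number of LSH1-only regions in them, 37.96% of bases fall in gene-end windows and 17.2% within 500 bp of a gene end. The matching values for bins weighted by NIN-only regions are 30.4% and 13.4%. LSH1-only regions were therefore above, and NIN-only regions below, the bases of their own surroundings for both measures. Inside coding genes fall 35.98% of bases in bins weighted by LSH1-only regions and 28.7% in those weighted by NIN-only regions, and both sets were below these values. Over 2000 bp from any gene fall 37.3% and 49.4%, with LSH1-only regions below and NIN-only regions above.

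The least repeated peaks of the same libraries give a second comparison, in which no difference passed the test. Peaks under 2000 bp that overlapped no peak of another list numbered 8249, 6357, 5853 and 6839 in LSH1 replicates 1 to 4. The gene-end window held 53.3% of midpoints at LSH1-only regions against 43.2% of these peaks in replicate 1, 53.7% against 46.7% in replicate 2, 53.0% against 39.8% in replicate 3 and 53.2% against 40.8% in replicate 4. The share was higher at LSH1-only regions in 4 of 4 lists, by 10.7 percentage points on average. Within 500 bp of a gene end the means were 30.0% ± 0.558 at LSH1-only regions and 21.8% ± 3.88 at peaks in no other list, also higher in 4 of 4 lists (SD, n = 4 each). Inside coding genes they were 30.8% ± 0.393 and 42.4% ± 3.46 (SD, n = 4 each), lower at LSH1-only regions in 4 of 4 lists. All 3 differences had a two-sided exact sign-flip p of 0.13, the smallest that 4 lists allow, and adjusted p = 0.167 (Benjamini-Hochberg over 4 measures), so none passed. Over 2000 bp from any gene the means were 32.3% ± 0.0474 and 30.2% ± 2.92 (SD, n = 4 each), a difference of 2.13 points (two-sided exact sign-flip p = 0.375, adjusted p = 0.375). This difference was 0.157 points without NIN replicate 3 and 0.950 without LSH1 replicate 2, and 3.65 with all annotated genes and 1.04 by any overlap of the peak, so its size rests on single lists and settings. Counting any overlap with a gene gave a difference inside genes of -4.64 points, against -11.6 by midpoints.

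Position to genes is given next by the number of LSH1 lists that held a region, with no test. Among regions under 2000 bp with no NIN peak, 42.7% of the 27298 found in 1 list, 48.2% of the 6219 in 2 lists, 53.1% of the 3147 in 3 lists and 53.5% of the 3459 in all 4 lists had a midpoint inside a gene-end window. Midpoints within 500 bp of an end made up 21.9%, 27.96%, 30.95% and 30.90%, the last 2 being nearly equal. Inside coding genes the shares ran the other way, at 42.4%, 37.96%, 33.3% and 30.5%. Median width increased along the same steps, at 260, 442, 622 and 892 bp, and its part in the shares was not tested. Within the LSH1-only regions the share in a gene-end window hardly followed place: with the regions put into 5 groups from earliest to latest mean place, it was 55.6%, 53.9%, 53.3%, 54.5% and 50.3%. The 176 wider regions of the same kind had 51.7% in a window and 44.9% inside genes. The 682 regions under 2000 bp in all 4 LSH1 lists that also had a NIN peak had 43.4% in a window.

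The distance profile shows where near a gene the regions lay. Per Mb of bases at a given distance, LSH1-only midpoints numbered 4.45 at over 5000 bp outside a gene, 9.52 at 2000 to 5000 bp, 11.1 at 1000 to 2000 bp, 13.9 at 500 to 1000 bp, 14.9 at 250 to 500 bp and 23.7 within 250 bp of the end. Past the gene end they numbered 24.6 in the first 250 bp, 12.8 at 250 to 500 bp, 6.51 at 500 to 1000 bp and 5.35 deeper inside, beside 9.03 over all bases. The density was thus highest in the 500 bp centred on a gene end and fell off to both sides. NIN-only midpoints were sparse where LSH1-only regions were densest, with 0.863 per Mb (12 regions) in the last 250 bp outside and 1.28 (19 regions) in the first 250 bp inside. At 250 to 500 bp outside their density was 0.989 (13 regions). It was 4.34 at over 5000 bp outside and 3.04 over all bases. Deeper inside genes their density was 2.88 at 250 to 500 bp, 1.84 at 500 to 1000 bp and 1.47 beyond, decreasing with depth as at LSH1-only regions. LSH1 peaks in no other list had 96.5 and 132 per Mb on the outer and inner side of the gene end, 33.5 at over 5000 bp outside and 85.4 at over 1000 bp inside, with 71.3 over all bases. Strand is not in the gene table, so starts and ends of genes could not be told apart.

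**Figure D3:**
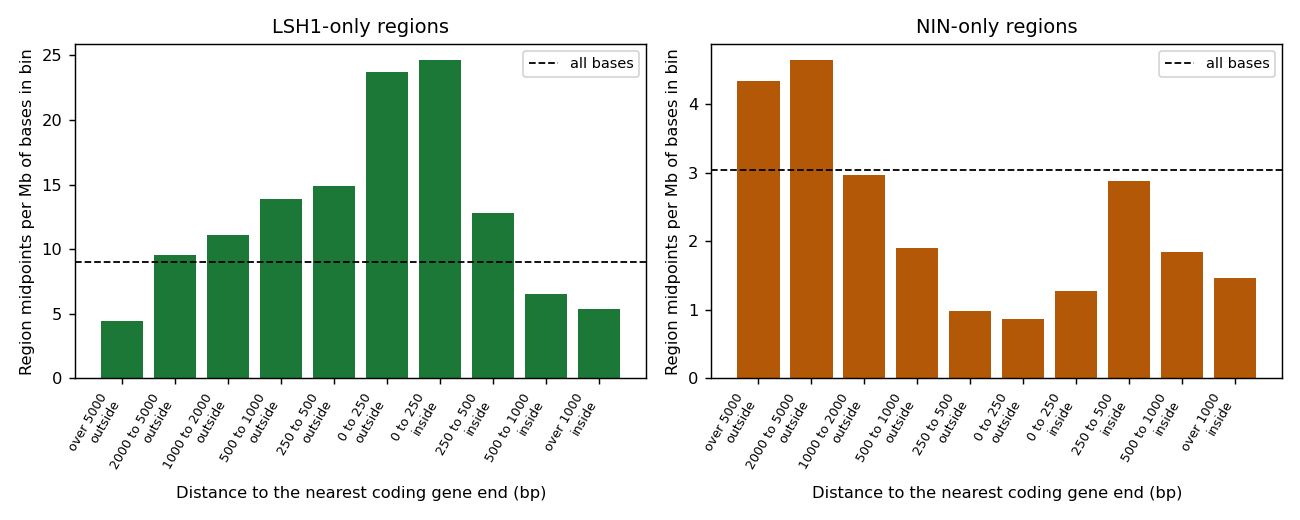
Region midpoints per Mb of bases in each distance class (vertical axes, with different scales) by distance in bp to the nearest coding gene end (horizontal axis, from far outside on the left to deep inside a gene on the right), for LSH1-only regions (left) and NIN-only regions (right). Dashed lines give the density over all bases, 9.03 and 3.04 per Mb; LSH1-only regions peak at 23.7 and 24.6 per Mb beside the gene end, where NIN-only regions are at 0.863 and 1.28.

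In counts, 1056 LSH1-only regions had their midpoint inside a coding gene, 543 of them within 500 bp of its end, and 1276 lay outside but within 2000 bp. Only 123 (3.56%) were more than 10 kb from a coding gene. The median distance of those outside genes was 1755 bp, against 4719 bp for NIN-only regions. Genes for transfer RNA, short genes transcribed by RNA polymerase III, were overlapped by 15 LSH1-only regions (0.434%) and by 0 of 1164 NIN-only regions. A count of 0 allows a share of up to 0.258% if the regions are independent, which was not shown. No share of bases in such genes was set beside these counts, and the difference was not tested. Genes for long non-coding RNA were overlapped by 54 LSH1-only (1.56%) and 21 NIN-only regions (1.80%), and pseudogenes by 23 LSH1-only (0.665%) and 16 NIN-only regions (1.37%). No LSH1-only region lay within 5000 bp of an annotated ribosomal RNA gene.

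Along the chromosomes the regions followed the coding genes. Chromosome 1 had the most, 11.2 per Mb, and chromosome 7 the fewest, 7.49 per Mb, and the 5 others had 8.33 to 9.55. Per 1000 coding genes the numbers ran from 107 on chromosome 7 to 141 on chromosome 1. In 378 bins of 1 Mb, LSH1-only regions per bin correlated with coding genes per bin with a Spearman rho of 0.781, and NIN-only regions with -0.393. With the bins put into 4 groups from fewest to most genes, LSH1-only regions numbered 1.90, 6.94, 11.2 and 16.0 per bin and NIN-only regions 4.04, 4.40, 2.65 and 1.19. Per 1000 coding genes, LSH1-only regions numbered 47.5, 94.9, 126 and 156 in the same groups, so they became denser per gene as well as per Mb. Peaks of LSH1 in no other list had a like gradient, with 406, 780, 1047 and 1138 per 1000 genes.

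**Figure D4:**
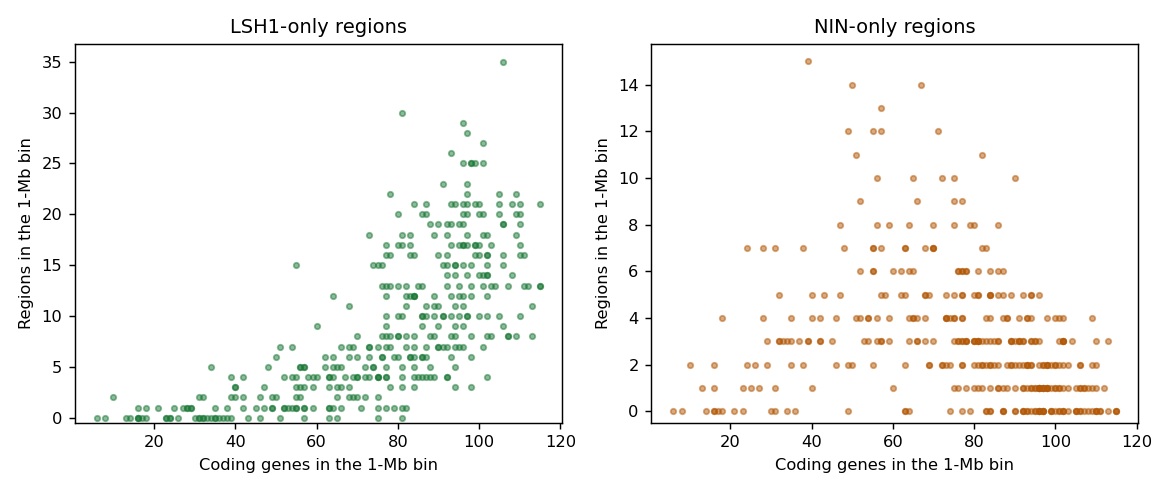
Regions per 1-Mb bin (vertical axes, with different scales) against coding genes per bin (horizontal axes) for LSH1-only regions (left) and NIN-only regions (right), with 1 point for each of 378 bins. LSH1-only regions increase with coding genes (rho = 0.781) up to 35 regions in a bin, and NIN-only regions decrease (rho = -0.393).

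By list, the gene counts describe the same regions again. The lists of a protein are thus no replicates of this contrast. The p against NIN-only regions given here was close to fixed in advance, and it adds no support to the values by bin. Within 500 kb to each side of the peak midpoint lay 90.1 ± 0.0576 coding genes for LSH1-only (SD, n = 4) and 70.0 ± 0.261 for NIN-only regions (SD, n = 3), a difference of 20.1 genes (two-sided exact permutation p = 0.0286, the smallest 35 splits allow; adjusted p = 0.0286 over 5 measures). LSH1 peaks in no other list had 89.2 ± 1.26 genes (SD, n = 4), which differed from LSH1-only regions by 0.904 (two-sided exact sign-flip p = 0.25, adjusted p = 0.312). Gene-rich surroundings were thus not shown to set the LSH1-only regions apart from other LSH1 peaks. This measure was chosen after the data had been seen.

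Most of the regions stood alone. The median gap between neighbours was 47282.5 bp, and 2557 regions (73.9%) had no other within 5000 bp. The rest made 340 pairs, 63 groups of 3, 7 groups of 4 and 1 group of 5. The group of 5 spanned 14385 bp on chromosome 1, from 46498216 to 46512600, with mean places of 2.76 to 46.7%, and the 1 coding gene within 2000 bp of it is LOC25484948. The longest stretch without an LSH1-only region was 5728385 bp, and 35 of the 378 bins had none. The nearest peak of NIN replicate 3 lay 2790 bp away at the median, against 14180 and 13169 bp for replicates 1 and 2, and 797 regions (23.0%) had a peak of replicate 3 within 1000 bp. Requiring no NIN peak within that distance would leave 2546 regions.

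The gene-end windows of 2003 of 29274 coding genes on the 7 chromosomes (6.84%) held the midpoint of an LSH1-only region. A window reaching 1000 bp outside took in 1449 genes (4.95%), and the whole gene with 3000 bp to each side 2983 (10.2%). Of the 2003 genes, 1858 had 1 region, 141 had 2 and 4 had 3. The 1851 regions in a window were in that of a single gene in 1561 cases, of 2 genes in 280 and of 3 or more in 10, so a region does not always point to 1 gene. The genes were 3266 bp long at the median, against 3198 bp for all coding genes. Gene names and distances below are those of the RefSeq table, and positions of regions are given as in the lists, 1-based, on a build that is not given in the sources used here.

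Genes of nodulation and symbiosis, a list fixed by symbol, had a region in 3 of 19 cases (15.8%), against the 6.84% of all coding genes. The number is small and the list was chosen with earlier results of these data known. The 3 genes are NSP1, CCaMK and STR2. Among all 74 coding genes on these chromosomes with a published name, a list made after the table had been seen, 8 (10.8%) had a region. The other 5 are CAD1, CYP81E7, CCS52B, VPYL and D27.

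NSP1 encodes a GRAS transcription factor that acts with NSP2 in early nodulation signalling. Its region on chromosome 8, from 7300857 to 7302174, overlapped the gene, with its midpoint 164 bp outside the gene's end. The peak had places of 4.55%, 2.05%, 1.55% and 1.84% in LSH1 replicates 1 to 4 and widths of 1139, 791, 765 and 695 bp. All 4 lists thus had it in their first 5%, and the bases shared by all lists made 610 bp.

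CCaMK encodes the calcium- and calmodulin-dependent kinase that decodes nuclear calcium oscillations in symbiosis. Its region on chromosome 8, from 16667419 to 16667955, also overlapped the gene, with its midpoint 268 bp outside. Places were 22.8%, 40.3%, 24.7% and 54.9% in replicates 1 to 4, and widths 500, 484, 228 and 190 bp. It was in the middle of the lists, latest in replicate 4, and the stretch shared by all lists was 135 bp. STR2 encodes an ABC transporter of the membrane around arbuscules in mycorrhizal roots. Its region on chromosome 5, from 13141028 to 13142311, overlapped the gene, with places of 18.9%, 8.06%, 11.6% and 3.90% and widths of 576, 1284, 317 and 339 bp. Replicate 2 had by far the widest peak there and replicate 4 the earliest place.

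CAD1 and CYP81E7 had the earliest regions of the named genes beside NSP1. CAD1 encodes a cinnamyl alcohol dehydrogenase, an enzyme type of lignin synthesis. Its region on chromosome 1, from 52401907 to 52403018, had places of 0.382%, 0.635%, 0.571% and 1.19% and widths of 929, 978, 1112 and 799 bp, with the midpoint 55 bp outside the gene. CYP81E7 encodes an isoflavone hydroxylase, a cytochrome P450 of isoflavonoid metabolism. Its region on chromosome 4, from 46858299 to 46859719, had places of 1.85%, 0.694%, 6.03% and 1.58%, with the midpoint 13 bp outside the gene. Both regions thus stood in the first 7% of every list.

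CCS52B, an activator of the anaphase-promoting complex in the cell cycle, had 2 regions beside each other on chromosome 3, from 34048750 to 34049376 and from 34049443 to 34050493. The first had places of 29.5%, 9.18%, 19.5% and 47.6%, and the second 22.8%, 6.80%, 17.0% and 74.8%, in replicates 1 to 4. Replicate 2 placed both earliest and replicate 4 latest. VPYL (VAPYRIN-LIKE), a relative of a protein needed for infection by rhizobia and mycorrhizal fungi, had a region on chromosome 1, from 43875687 to 43877288, with its midpoint 175 bp inside the gene, at places of 18.2%, 65.6%, 79.7% and 58.9%. D27, which encodes an isomerase at the start of strigolactone synthesis, had a region on chromosome 1, from 35372425 to 35373357, at 30.0%, 91.2%, 91.6% and 98.8%. In both regions only replicate 1 had the peak in the first 50% of its list, and no base was shared by all 4 lists.

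**Figure D5:**
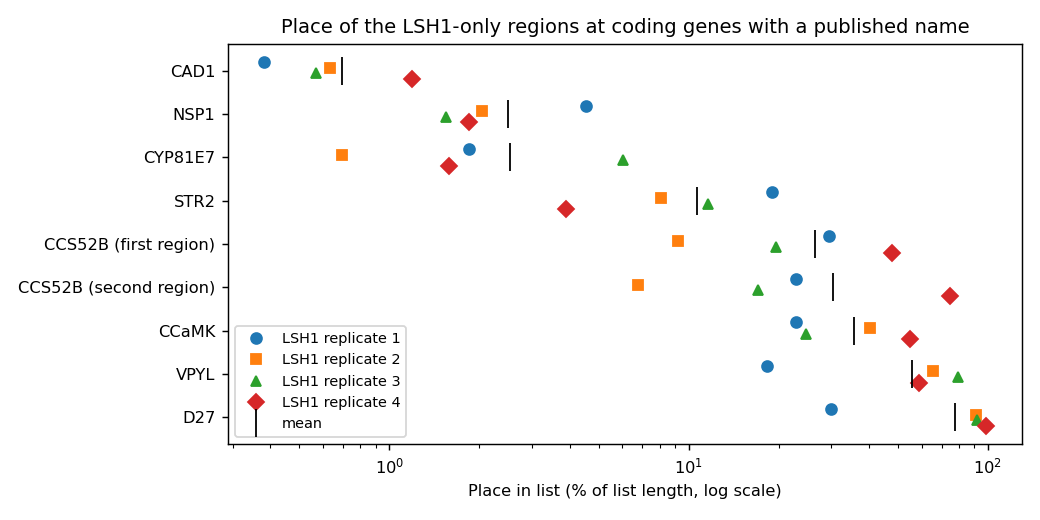
Place in each LSH1 list (horizontal axis, per cent of list length on a log scale, low values first) of the LSH1-only regions at the 8 coding genes with a published name, with 1 symbol per replicate and a line at the mean. The regions at CAD1, NSP1 and CYP81E7 have mean places of 0.694%, 2.50% and 2.54%, and those at VPYL and D27 of 55.6% and 77.9%.

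Another 5 genes known from symbiosis or hormone signalling, named here for their part in nodule development, had no LSH1-only region in their windows. The nearest one to NOOT1, which encodes a BTB-ankyrin co-regulator of nodule identity, lay 5127 bp from the gene on chromosome 7, from 42212397 to 42213206, with places of 8.66%, 21.5%, 36.4% and 22.5%, and 4 lay within 20 kb. The nearest to NOOT2 was 356358 bp away. The nearest to DELLA2, a repressor of gibberellin responses, was an early region 1065 bp from the gene on chromosome 8, from 37954830 to 37956660, with places of 3.59%, 1.75%, 3.96% and 2.05%. Its midpoint was just outside the window. The nearest to NSP2 and to IPD3, the partner of CCaMK, were 32477 and 136724 bp away.

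The 12 best-placed regions in a gene-end window stood in the first 1.01% of every list and were at genes for which the table gives no name beyond a number. First came a region on chromosome 7, from 37481726 to 37483298, at 1102 bp from LOC112416687. It had places of 0.123%, 0.137%, 0.197% and 0.178%, being peak number 31, 30, 37 and 37 of its lists. The second, on chromosome 8 from 43156578 to 43158385, overlapped the end of LOC11442612, with places of 0.147%, 0.160%, 0.160% and 0.192%. The third, on chromosome 7 from 2724954 to 2726785, overlapped LOC11422400, with places of 0.255%, 0.233%, 0.235% and 0.197%. Similar early places in all 4 lists follow from the choice by mean place. The others of the 12, in order, were at LOC112421265, LOC11420642, LOC11408072 and LOC11430932 (1 region in both windows), LOC11414135, LOC11436549, LOC25483031 and LOC11434981 (1 region in both windows), LOC25500095, LOC11439092 and LOC11408849. Their mean places ran from 0.256% to 0.539%, and the stretch shared by all 4 lists from 532 to 1478 bp.

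The 12 regions with the best mean place of all, looked at after their values had been seen, had no single position to genes. Of these, 3 had a midpoint inside a coding gene, 2 lay outside within 2000 bp and 7 were farther from any coding gene. Among all LSH1-only regions 30.5% had a midpoint inside a coding gene and 32.6% were over 2000 bp from any. In the earliest of the 5 groups by mean place these shares were 30.5% and 30.2%. The 12 regions are few, and a difference from the rest was not tested. The earliest, on chromosome 3 from 31875834 to 31877399, had places of 0.0716%, 0.0685%, 0.0800% and 0.0722%, and its midpoint lay 9238 bp outside the nearest coding gene. The seventh and eighth, on chromosomes 5 and 4, lay 20078 and 25392 bp outside.

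The 4 genes with 3 regions in the window had regions of unlike place. LOC11422400 had regions with mean places of 0.643%, 0.230% and 13.7% on chromosome 7 between 2723441 and 2729133. At LOC25480425, between 27128261 and 27133674 on chromosome 1, the means were 32.1%, 17.4% and 42.6%. At LOC25486189, between 8428343 and 8433400 on chromosome 2, they were 26.0%, 61.4% and 29.5%. At LOC25500825, between 10974683 and 10979731 on chromosome 8, they were 38.9%, 17.7% and 8.71%. LOC11422400 alone of the 4 genes had a region in the first 1% of all lists.

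The regions next to the width limit on either side were as follows. The 3 widest LSH1-only regions were 1994, 1995 and 1996 bp wide, with mean places of 22.1%, 27.1% and 34.6%. The 3 narrowest above the limit were 2007, 2010 and 2011 bp wide, with 3.98%, 1.95% and 2.64%. With the LSH1-only regions put into 5 groups by width, the widest group (1278 to 1996 bp) had a median of 10.8% for the mean place. The 3 widest regions thus stood later than the median of their group, and a change of place at the limit was not tested. Within 100 bp of the limit there were 48 regions below it and 33 above.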

How the data were processed

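Per the submitters' processing notes, the authors used Bowtie2, Picard, MACS2 and ChIPseeker; the genome build is not given in the sources used here, and versions and other settings are not stated there or in the labels. The names of the deposited lists give narrow peaks at a q-value of 0.05, called per replicate. The deposited lists hold positions and a running number without a unit, read here as a rank. Controls enter only through the peak calls.

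Peaks were merged with Python 3.11.15, numpy 2.4.6 and pandas 2.3.3. The midpoint of a region in LSH1 lists is the mean midpoint of its best-placed peak per list, and that of a NIN-only region its centre; values per list use the list's own peaks. Genes came from the RefSeq table of assembly MtrunA17r5.0-ANR. A gene end was within 500 bp of the midpoint in 30.9% of regions, against 16.6 to 17.6% with the genes moved by 1000, 5000 or 20000 bp, so both coordinate systems were used together. That table has no strand, product or sequence: planned motif counts and gene lists by product words were not run, and exons, introns and UTRs are not stated.

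Shares per list were compared by exact permutation over the 35 splits of 7 lists and by exact sign flips over the 4 LSH1 lists, tested on simulated lists. Named are the 12 best-placed regions in a gene-end window over 5000 bp from ribosomal RNA genes, all listed genes with a region, the genes with the most regions, and 3 regions on either side of the width limit; genes beyond this rule were chosen after their values were seen. The regions and gene lists were chosen with earlier results of these data known, among them that LSH1 peaks lie nearer to genes than NIN peaks, so that difference is no independent support. Alternatives were other overlaps, widths, list lengths and gene windows, all annotated genes, any overlap in place of midpoints, and each list left out.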

Additional observations from a re-analysis of the deposited data

Results flagged for a closer look

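Per-list values of 13 measures in the 4 LSH1 lists were checked for a list far from the others, by the gap to the nearest value over the whole range. None of the 13 was outlying, where chance gives about 1 group in 20.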

How the results depend on the processing

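The differences in gene position between LSH1-only and NIN-only regions kept their sign under all alternatives tried. Over the 7 runs that leave out 1 list each, the difference was 27.7 to 31.9 percentage points in the gene-end window, 20.6 to 23.4 within 500 bp of a gene end, 9.47 to 14.9 inside genes and -35.2 to -27.8 over 2000 bp from any gene. Their exact permutation p was 0.1 without an LSH1 list and 0.0667 without a NIN list, the smallest those designs allow. With a replicate block that pairs lists of the same number, the differences were 31.1, 22.5, 13.7 and -34.5 points in the same order (exact sign-flip p = 0.25, the smallest 3 pairs allow). Deviations of same-numbered lists correlated with 0.0479, 0.00144 and 0.0423, and those of lists with other numbers with -0.0539 to 0.0224. All values were weak, but the same-number values of replicates 1 and 3 were the highest. The numbers were taken as names in the main tests, and a pairing is not excluded. The number of LSH1-only regions was 2276 from the first 10000 peaks of each list and 2076 under 1000 bp in width, both through fewer peaks or regions admitted. It was 3888 to 4880 without an LSH1 list, highest without replicate 3, and 3522 to 3968 without a NIN list. Requiring a stretch covered by all 4 lists left 3213 regions, and linking peaks only where they overlap by 50% of the smaller gave 3507; both were chosen after seeing the data. Of 120 alternatives, 86 kept the call or size of the main value, 32 lost the call and 2 moved a count by over 1.5 times. None reversed a sign. Many of these outcomes were fixed in advance. All 32 lost calls came from settings whose smallest possible p is over 0.05. Sign flips over the LSH1 lists cannot reach 0.05 either, so their calls could not change. The count for peaks that overlap the merged region by 50% of the smaller equals the main value by construction. A gene-end window of 1000 bp leaves the other 3 position measures as they were. No alternative was run for motifs. Unknown depth and missing peak heights limit how far a region absent from a list can be read as unbound.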
